A study of Mus musculus with 10 samples.

Results

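Bone and cartilage genes are described here in mouse tumors driven by YAP1. The members were chosen by name: RUNX2, SP7, ALPL, IBSP, DMP1, MEPE, PHEX, SOX9 and ACAN, which are 9 of the 16895 genes listed. All 9 are in the files under human-style symbols, and 6 of them were high enough to enter the tests. SP7, DMP1 and MEPE were too low and are given as values.

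The tumors came from mice injected as newborns, at postnatal day 0 to 3, under the arachnoid membrane. The injected cells were chicken DF1 fibroblasts that shed an avian RCAS retrovirus. All mice were null for Cdkn2a and carried tv-a, the receptor that lets the virus enter, under Nestin control, so infection was limited to cells with that driver. The virus carried YAP1-MAML2-v2, a fusion of the coactivator YAP1 with the Notch coactivator MAML2 (n = 7), or NLS-2SA-YAP1, a constitutively active YAP1 by the series title (n = 3). Extra cranial tumors were replicates 1, 3, 4 and 5 of YAP1-MAML2-v2 together with replicates 2 and 3 of NLS-2SA-YAP1. Extra axial tumors were replicates 2 and 6 of YAP1-MAML2-v2 together with replicate 1 of NLS-2SA-YAP1. Replicate 7 of YAP1-MAML2-v2 was the 1 intra ventricular tumor. The labels name DF1 as the cell type although the RNA is from frozen tumor tissue, and they give neither the age at collection nor whether each library is a separate mouse. The p-values therefore measure the spread between these libraries, which may in part be technical. The files of YAP1-MAML2-v2 replicates 6 and 7 carry the same leading identifier, and whether they came from 1 mouse is not stated. No normal meninges or bone was analysed here.

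RUNX2 is the transcription factor that commits mesenchymal cells to the osteoblast lineage, and SP7 (osterix) acts after it. Osteoblasts then make tissue-nonspecific alkaline phosphatase (ALPL), which frees phosphate for mineral, and the acidic matrix proteins IBSP, DMP1 and MEPE. Mature osteoblasts and osteocytes make PHEX, a membrane endopeptidase needed to retain phosphate. SOX9 directs cartilage formation and switches on ACAN, the large proteoglycan of cartilage, but SOX9 is also made by glial cells. Several of these genes are not exclusive to the skeleton, and ALPL in particular is known from vessels and meninges.

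The deposited totals ran from 28001143 to 44544314 per library and are sums of estimated counts, so the depth is unknown. Genes of meningeal fibroblasts summed to 4600 to 12000 CPM, a level scaled to the library total, in every library, with at most 1 of the 12 listed at 0. The make-up of the sum differed. In YAP1-MAML2-v2 replicate 7, PTGDS alone gave 8540 of 10600 CPM. COL3A1 had 0.829 CPM there against 546 to 4830 CPM in the other libraries, while FOXC1 was highest there at 1020 CPM. The astrocyte list summed to 4050 CPM in YAP1-MAML2-v2 replicate 7 against 71.6 to 386 CPM in the other libraries. The neuron list summed to 350 CPM in that library against 1.81 to 42.9 CPM in the others. Skeletal muscle genes summed to 102 CPM in YAP1-MAML2-v2 replicate 3, 117 CPM in NLS-2SA-YAP1 replicate 2 and 435 CPM in NLS-2SA-YAP1 replicate 3, against 2.41 to 11.5 CPM elsewhere. Of the 90 member values, 24 were listed at 0 or 1 before scaling, and a fold against such a value has no clear meaning. In bulk tissue, fewer cells of a type and less RNA per cell cannot be told apart.

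DMP1, IBSP and MEPE lie side by side in a cluster of acidic matrix genes on mouse chromosome 5, all on the plus strand of mm10. In order along 270 kb are DSPP (chr5:104170712-104180127), DMP1 (chr5:104202613-104214102), IBSP (chr5:104299171-104311469), MEPE (chr5:104325329-104338611) and SPP1 (chr5:104435118-104441050). SPP1 encodes osteopontin, which macrophages and many tumors also make. The highest level of each gene in any tumor was 0.26 CPM for DSPP, 2.07 CPM for DMP1, 9.31 CPM for IBSP, 0 for MEPE and 1030 CPM for SPP1. The promoters of 3 neighbours are shown because each holds the letters of a RUNX site while their levels lie far apart. They were picked for that match: the window of IBSP and the other windows of DMP1 and SPP1 do not hold these letters. They are the 250 bases before a RefSeq start (GRCm38.p6), plus strand, 5′ to 3′, at chr5:104202367-104202616 for DMP1, chr5:104325079-104325328 for MEPE and chr5:104434861-104435110 for SPP1. Capitals mark exact matches on either strand to a motif. The letters searched were TGTGGT for RUNX factors, then GGAATG for the TEAD factors that YAP1 binds. For SOX factors they were ACAAAG, and for the TATA box of core promoters they were TATAAA.
DMP1: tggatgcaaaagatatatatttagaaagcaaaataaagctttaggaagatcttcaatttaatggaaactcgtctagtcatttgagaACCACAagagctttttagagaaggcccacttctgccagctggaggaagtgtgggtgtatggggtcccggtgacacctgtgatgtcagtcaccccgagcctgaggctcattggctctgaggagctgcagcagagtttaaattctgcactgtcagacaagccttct
MEPE: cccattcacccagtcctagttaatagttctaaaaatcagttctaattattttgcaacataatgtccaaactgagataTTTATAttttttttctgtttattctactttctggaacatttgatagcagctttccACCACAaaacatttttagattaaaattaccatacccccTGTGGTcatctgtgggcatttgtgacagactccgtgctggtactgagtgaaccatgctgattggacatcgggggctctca
SPP1: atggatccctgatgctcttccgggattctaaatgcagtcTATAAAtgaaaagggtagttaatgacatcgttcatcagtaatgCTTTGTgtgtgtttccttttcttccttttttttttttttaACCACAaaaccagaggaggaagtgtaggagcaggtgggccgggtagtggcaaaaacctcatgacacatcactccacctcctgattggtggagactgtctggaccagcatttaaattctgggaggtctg
The RUNX letters stand on the minus strand 164 bases before the start in DMP1 and 128 bases before it in SPP1. MEPE holds them on the minus strand at 118 and on the plus strand at 80. None of the marked matches overlaps another. RUNX2's own window holds the letters 80 bases before its start on the minus strand. TGTGGT occurs in 14% of the 32851 mouse promoter windows of this length and in 3 of the 9 member windows, which cover 7 members. The shares were 12.6% of all windows and 1 of 9 for the TEAD letters, 16.5% and 3 of 9 for the SOX letters, and 12.4% and 3 of 9 for the TATA box. The TEAD match lies 12 bases before the ACAN start, the TATA matches are in ALPL, IBSP and MEPE, and the SOX matches are in ALPL and PHEX. These are letter matches in a short window and show no binding.

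Per kilobase of exon, ALPL had the highest median level of the members, 17.1 CPM per kb. RUNX2 followed at 1.58, SOX9 at 0.778, ACAN at 0.328, PHEX at 0.157, IBSP at 0.132, SP7 at 0.0157 and DMP1 at 0.0154 CPM per kb, and MEPE was at 0. Neighbours in this order often changed places. ALPL exceeded RUNX2 in 8 of 10 tumors and SOX9 exceeded ACAN in 8, while RUNX2 exceeded SOX9 in 6, ACAN exceeded PHEX in 6, PHEX exceeded IBSP in 6, IBSP exceeded SP7 in 7 and SP7 exceeded DMP1 in 5. The 6 tested members varied more between tumors than most tested genes. The SD of log2 CPM over the 10 libraries was 2.25 for RUNX2, 2.46 for ALPL, 2.58 for IBSP, 1.65 for PHEX, 2.33 for SOX9 and 3.4 for ACAN, against a median of 0.82 over all tested genes. Of the tested genes, 91.2% had a lower SD than RUNX2, 82.6% a lower SD than PHEX and 97.8% a lower SD than ACAN. The genes compared were not matched for level. Median levels were 0.273 CPM for IBSP and 0.987 CPM for PHEX, and IBSP and ACAN were each at 0 in 2 libraries. The part of low levels in these SDs was not tested.

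**Figure D1:**
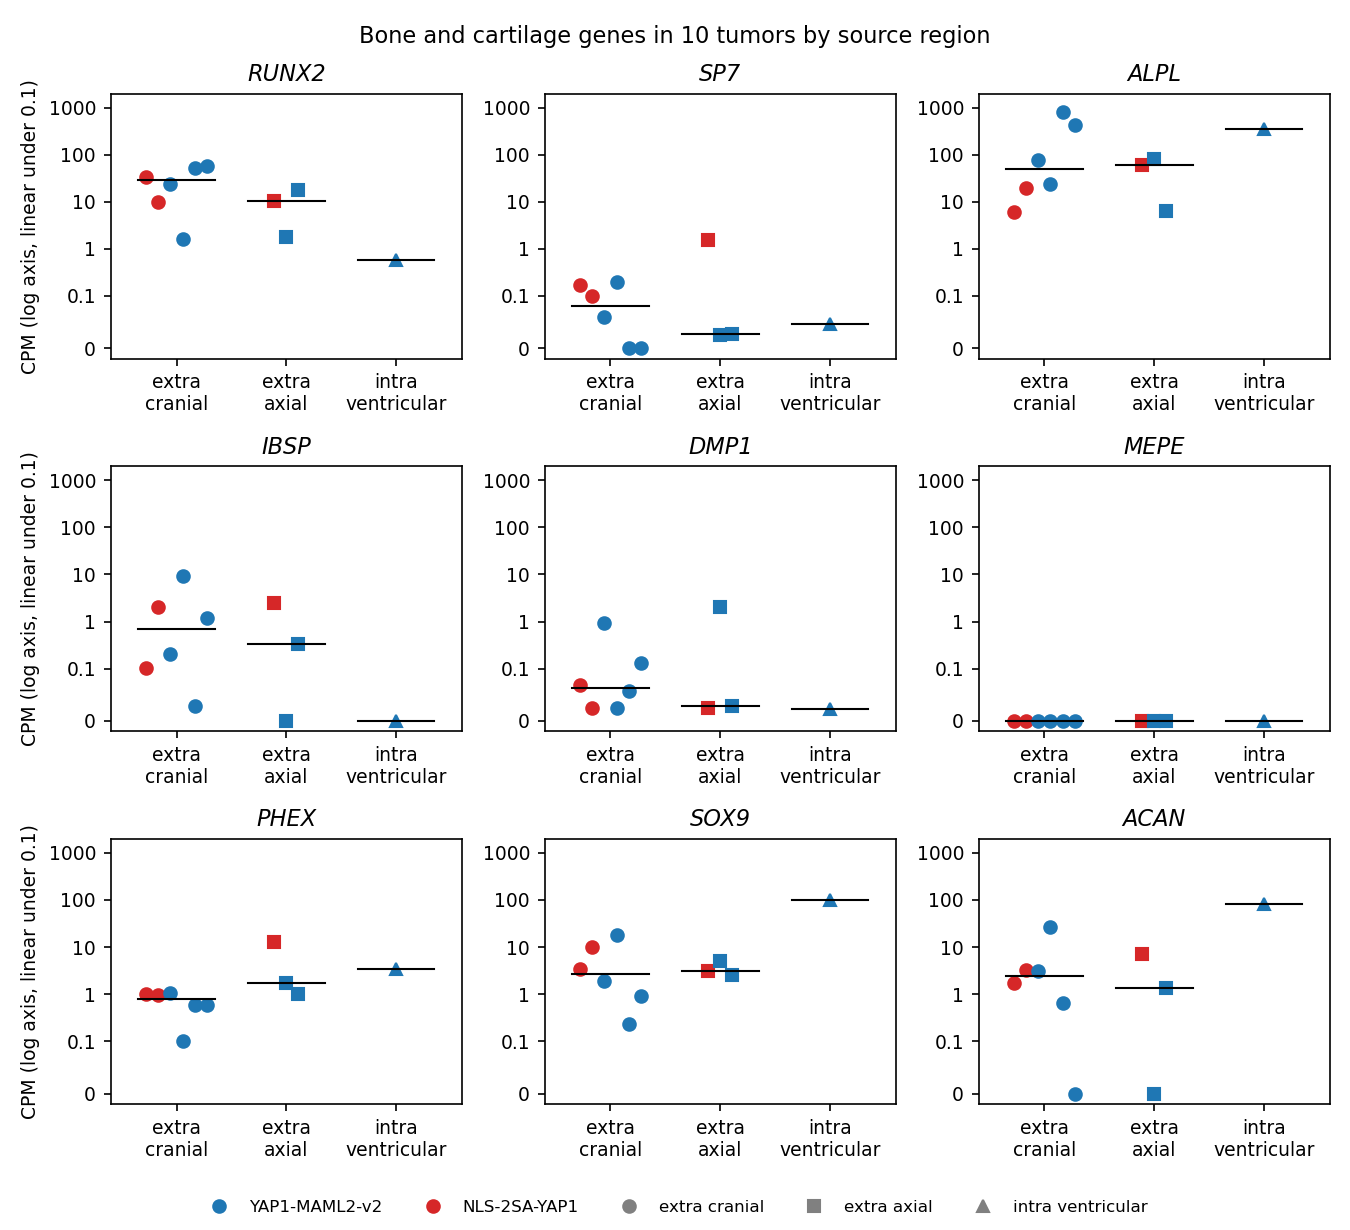
TMM-scaled CPM (y axis, log scale, linear under 0.1) of the 9 members in each of the 10 tumors, by labelled region (x axis); colour gives the construct, and the black line is the median of the region. ALPL lies between 5.98 and 795 CPM, MEPE is at 0 in every tumor, and SOX9 and ACAN are highest in the single intra ventricular tumor.

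RUNX2 (chr17:44495987-44814797, minus strand) was present in every tumor. In the extra cranial YAP1-MAML2-v2 replicates 1, 3, 4 and 5 it had 23.5, 1.59, 52.7 and 57.1 CPM, and in the extra cranial NLS-2SA-YAP1 replicates 2 and 3 it had 33.5 and 10.1 CPM. The extra axial tumors had 1.78 and 17.5 CPM (YAP1-MAML2-v2 replicates 2 and 6) and 10.4 CPM (NLS-2SA-YAP1 replicate 1). The intra ventricular tumor had 0.592 CPM, the lowest of all. The 4 highest values were all extra cranial, but so was 1.59 CPM, and the regions overlap. The mean was 29.7 ± 22.4 CPM (SD, n = 6) in extra cranial and 9.89 ± 7.87 CPM (SD, n = 3) in extra axial tumors. SP7 (chr15:102356606-102367182), by contrast, stayed at or under 0.202 CPM in 9 tumors. It had 1.51 CPM in NLS-2SA-YAP1 replicate 1 and was listed at 0 in YAP1-MAML2-v2 replicates 4 and 5, the pair in which RUNX2 was highest.

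ALPL (chr4:137741733-137796384, minus strand) spanned 133-fold. YAP1-MAML2-v2 replicates 1 to 7 had 76, 80.2, 23.9, 795, 438, 6.52 and 350 CPM, and NLS-2SA-YAP1 replicates 1 to 3 had 61.6, 5.98 and 19.3 CPM. Replicates 4, 5 and 7 of YAP1-MAML2-v2 stood above all others, and the constructs overlapped at the low end. Among extra cranial tumors the 4 YAP1-MAML2-v2 values ran from 23.9 CPM upward, beside NLS-2SA-YAP1 values of 5.98 and 19.3 CPM. Within these libraries the log2 fold change between constructs was -4.72 (SE 1.59, edgeR adjusted p = 0.442). The share of all genes split in this way was not counted. In extra axial tumors NLS-2SA-YAP1 replicate 1 lay between the YAP1-MAML2-v2 values. ALPL and RUNX2 were both high in YAP1-MAML2-v2 replicates 4 and 5, but the intra ventricular tumor had 350 CPM of ALPL with the lowest RUNX2.

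The acidic matrix genes were low, and IBSP and DMP1 were highest in different tumors. IBSP, a cell-binding protein of mineralizing matrix, had 0.208, 0, 9.31, 0.0284, 1.19, 0.337 and 0 CPM in YAP1-MAML2-v2 replicates 1 to 7. NLS-2SA-YAP1 replicates 1 to 3 gave 2.49, 0.102 and 2.01 CPM. The value of YAP1-MAML2-v2 replicate 3 was 3.74 times the next one. DMP1, an osteocyte matrix protein that restrains FGF23, had 2.07 CPM in YAP1-MAML2-v2 replicate 2 and 0.952 CPM in replicate 1, and at most 0.132 CPM in the remaining 8 libraries. MEPE, a matrix phosphoglycoprotein of osteocytes, was listed at 0 in all 10.

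PHEX (chrX:157162075-157415312, minus strand) had 1.04, 1.7, 0.101, 0.596, 0.594, 0.983 and 3.36 CPM in YAP1-MAML2-v2 replicates 1 to 7. NLS-2SA-YAP1 replicates 1 to 3 had 12.5, 0.991 and 0.98 CPM. The extra axial tumors were the higher ones, at 0.983, 1.7 and 12.5 CPM against 0.101 to 1.04 CPM in extra cranial tumors, with an overlap between 0.983 and 1.04 CPM. NLS-2SA-YAP1 replicate 1 stood 3.72 times above the next library, so the extra axial mean of 5.08 ± 6.48 CPM (SD, n = 3) rests on it.

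SOX9 (chr11:112782224-112787760, plus strand) had 1.9, 5.08, 17.8, 0.227, 0.923, 2.58 and 102 CPM in YAP1-MAML2-v2 replicates 1 to 7. NLS-2SA-YAP1 replicates 1 to 3 gave 3.09, 3.35 and 9.93 CPM. ACAN (chr7:79053483-79115099, plus strand) had 3.15, 0, 26.8, 0.652, 0, 1.35 and 83.8 CPM and then 7.28, 1.74 and 3.29 CPM in the same order. In both genes the intra ventricular tumor, YAP1-MAML2-v2 replicate 7, was highest and YAP1-MAML2-v2 replicate 3 second. The ratio of first to second was 5.73 for SOX9 and 3.13 for ACAN. In that intra ventricular tumor GFAP, the filament protein of astrocytes, had 1200 CPM against 39.9 CPM in YAP1-MAML2-v2 replicate 3 and at most 4.97 CPM elsewhere. AQP4, the water channel of astrocyte endfeet, had 103 CPM there, 25.6 CPM in replicate 3 and 0 in 5 libraries. The neuron list was also highest in the intra ventricular tumor, at a sum of 350 CPM against 1.81 to 42.9 CPM in the others. The part of astrocytes and of neurons in the SOX9 and ACAN values was not tested. COL2A1, the main collagen of cartilage, had 372 CPM in the intra ventricular tumor and 337 CPM in replicate 3.

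The first comparison asked whether the constructs differ in these genes. With edgeR's quasi-likelihood test, adjusted by Benjamini-Hochberg over all genes, 2 of 13707 genes passed 0.05 (0.0146%), CHRDL1 and IGF2BP1, both higher with NLS-2SA-YAP1, and none of the 6 tested members did. At an unadjusted p under 0.05 the share was 13.1% of all genes and 0 of 6 members. Mean ALPL was 253 ± 292 CPM (SD, n = 7) with YAP1-MAML2-v2 and 29 ± 29 CPM (SD, n = 3) with NLS-2SA-YAP1, at a log2 fold change of -2.52 (SE 1.93, edgeR adjusted p = 0.623) with region as a term. Leaving out NLS-2SA-YAP1 replicate 1 gave -4.72, and leaving out NLS-2SA-YAP1 replicate 2 gave -1.15. Mean PHEX was 1.2 ± 1.08 CPM (SD, n = 7) with YAP1-MAML2-v2 and 4.84 ± 6.67 CPM (SD, n = 3) with NLS-2SA-YAP1, a log2 fold change of 1.71 (SE 0.95, edgeR adjusted p = 0.476), which was 0.74 without NLS-2SA-YAP1 replicate 1. RUNX2 at -0.37 (SE 0.99), IBSP at 0.8 (SE 2.46), SOX9 at 0.14 (SE 1.09) and ACAN at 0.48 (SE 2.48) lay within 1 SE of 0, and the sign of each turned under other settings or without single libraries. The groups overlapped in every tested member. Of the 6 log2 fold changes 4 were above and 2 below 0, with a median of 0.31 against -0.03 over all genes tested. That median turned to -1.36 without NLS-2SA-YAP1 replicate 1, to -0.48 without YAP1-MAML2-v2 replicate 2 and to -1.04 without the region term, and it was 1.72 without YAP1-MAML2-v2 replicate 3. Beside them all 10 tested muscle genes had a log2 fold change above 0, with a median of 2.18 and none past the threshold.

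The second comparison set extra axial against extra cranial tumors, with construct as a term. No gene passed by edgeR (0 of 13707, 0%). At an unadjusted p under 0.05 the share was 3.01% of all genes and 1 of 6 members. That member was PHEX, with a log2 fold change of 2.15 (SE 0.94, unadjusted p = 0.0462, edgeR adjusted p = 1) and higher levels in extra axial tumors. The value was 1.18 when NLS-2SA-YAP1 replicate 1 was left out and 1.19 within the YAP1-MAML2-v2 tumors alone. RUNX2 had -1.55 (SE 1.05), ALPL -0.75 (SE 1.91), IBSP -1.74 (SE 2.57), SOX9 -0.65 (SE 1.13) and ACAN -1.37 (SE 2.55), each with an edgeR adjusted p of 1. The direction of RUNX2 held under every alternative run, and that of ALPL, IBSP, SOX9 and ACAN turned under at least 1. The median of the 6 was -1.06 (-0.01 over all genes), with 1 above and 5 below 0. The median was -0.12, -0.18 and -0.46 without YAP1-MAML2-v2 replicates 3, 2 and 6, -1.85 without NLS-2SA-YAP1 replicate 1, and 0.64 with a replicate block. In the same comparison all 10 tested muscle genes had a log2 fold change below 0, with a median of -3.16 and none past the threshold. The part of muscle in the members' values was not tested.

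**Figure D2:**
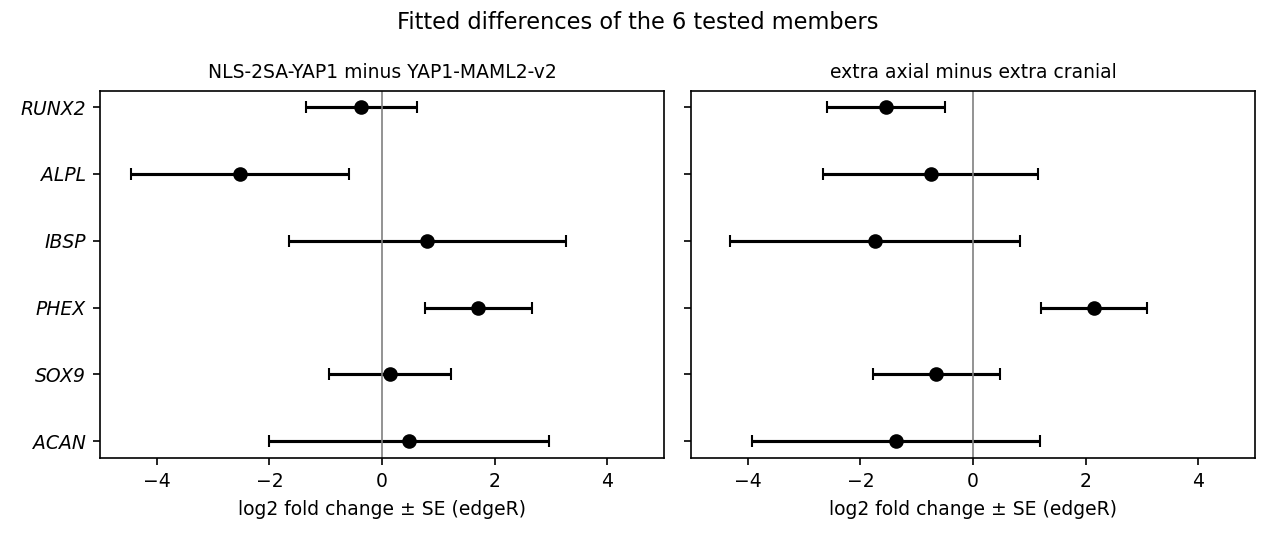
Log2 fold changes (x axis, points) from edgeR for the 6 tested members, between constructs on the left and between regions on the right. Bars are standard errors worked back from the F values of the test. PHEX lies above 0 on both sides, at 1.71 and 2.15, and ALPL has -2.52 between constructs; no member passed the adjusted threshold.

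Whether the construct difference itself changed with region was tested as an interaction in the 9 extra cranial and extra axial tumors. 1 of 13487 genes passed by edgeR (0.00741%), GABRB2, and 7.14% had an unadjusted p under 0.05; no member was among either. ALPL came nearest, with an interaction of 5.23 on the log2 scale (SE 2.33, unadjusted p = 0.0526, edgeR adjusted p = 0.692). The only extra axial NLS-2SA-YAP1 tumor is replicate 1, so this term cannot be told apart from that library. IBSP had 5.22 (SE 3.77), ACAN 5.04 (SE 3.86), PHEX 2.47 (SE 1.78), RUNX2 0.74 (SE 2.11) and SOX9 -0.64 (SE 2.6). These values moved widely when 1 library was left out. Without YAP1-MAML2-v2 replicate 6, IBSP had 10.87, ACAN 12.68 and RUNX2 3.2. In that fit replicate 2 was the only extra axial YAP1-MAML2-v2 tumor. IBSP and ACAN were listed at 0 in it, so their sizes there have no clear meaning. Without YAP1-MAML2-v2 replicate 2, ALPL had 8.03 and RUNX2 -0.05, and without YAP1-MAML2-v2 replicate 3, SOX9 had -2.99, IBSP 2.72 and ACAN 2.46.

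Of the 15 pairs of tested members, 1 was related across the 10 tumors after adjustment. RUNX2 and SOX9 ran in opposite directions, with Pearson's r = -0.88 on log2 CPM (permutation p = 0.00043, adjusted over the 15 pairs 0.00645) and Spearman's rho = -0.90 (permutation p = 0.00077, adjusted 0.0115), both two-sided. YAP1-MAML2-v2 replicates 4 and 5 combined the highest RUNX2, 52.7 and 57.1 CPM, with the lowest SOX9, 0.227 and 0.923 CPM. YAP1-MAML2-v2 replicates 3 and 7 combined RUNX2 of 1.59 and 0.592 CPM with SOX9 of 17.8 and 102 CPM. Without those last 2 libraries, the farthest from the median in RUNX2, r was -0.69, and without the intra ventricular tumor alone it was -0.79. Within the 7 YAP1-MAML2-v2 tumors r was -0.93 and within the 6 extra cranial tumors -0.86, while NLS-2SA-YAP1 has 3 libraries and gives no value. Of 11446 genes at a mean log2 CPM of at least 1, 14 (0.122%), SOX9 among them, had an r with RUNX2 as low as that of SOX9. In the other direction 48 genes (0.419%), RUNX2 among them, had an r with SOX9 as low as that of RUNX2. The pair was singled out from the 15 in these same libraries, so these ranks are a description and no separate evidence. SOX9 and ACAN had r = 0.67 (permutation p = 0.034, adjusted 0.255) and did not pass. RUNX2 and ALPL, successive steps of bone formation, had r = 0.01 (permutation p = 0.976).

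**Figure D3:**
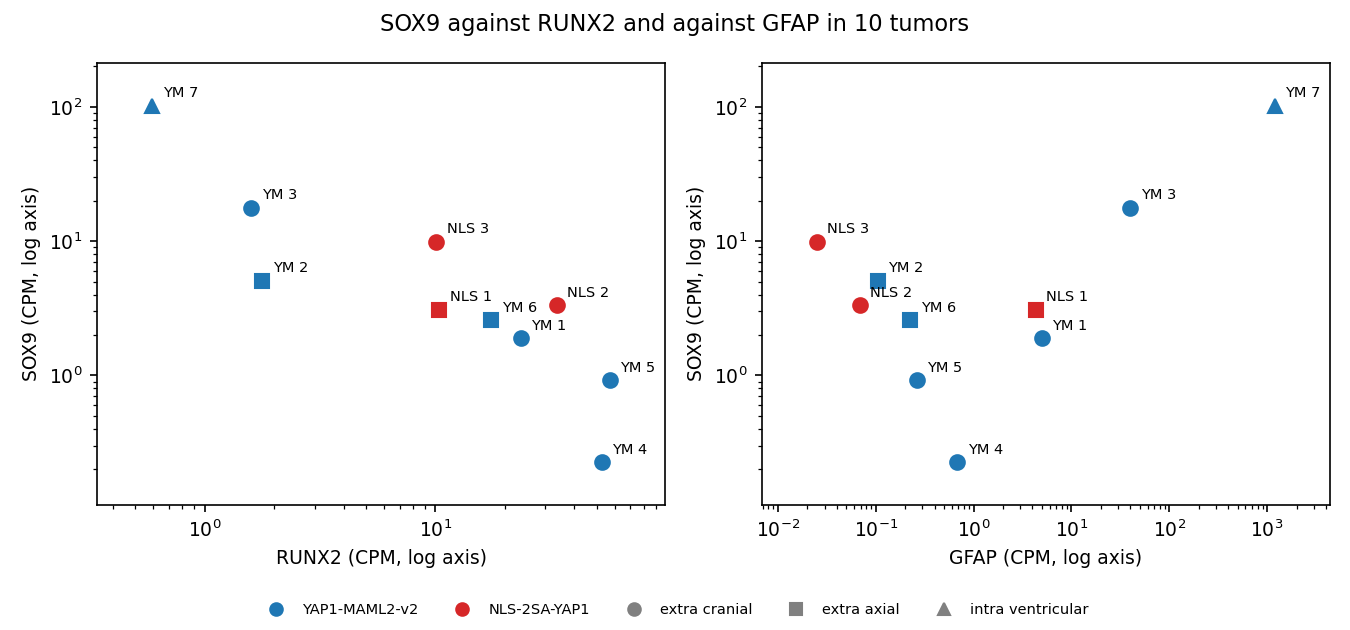
SOX9 (y axis, CPM, log scale) against RUNX2 (left) and against GFAP (right; x axes, CPM, log scale) in the 10 tumors; colour gives the construct and shape the region. SOX9 falls as RUNX2 rises, from 102 CPM at a RUNX2 of 0.592 to 0.227 at 52.7, and the tumor with the highest SOX9 also has the highest GFAP, 1200 CPM.

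The genes whose log2 CPM followed each member most closely over the 10 libraries were taken from the same 11446 genes, as a description. For RUNX2 they were the ribosomal protein gene RPS16 (r = 0.942), ZNF121 (0.941) and MAD2L1BP (0.938). For ALPL they were CRYZ (0.885), ACSF3 (0.884) and ZFAND1 (0.882), for IBSP NPEPPS (0.911), MAPKAPK3 (0.868) and SLC4A1AP (0.864), and for PHEX MEAF6 (0.938), PYURF (0.914) and NDUFAF3 (0.902). SOX9 was followed by AAK1 (0.932), BCR (0.929) and SMARCA1 (0.928), and ACAN by KIAA1549L (0.976), MPPED2 (0.947) and SCG5 (0.941). None of these genes is on the bone or cartilage lists used here.

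Other genes of the bone program were read beside the members, and no gene of any list passed the adjusted edgeR threshold in any comparison. Of 27 other osteoblast and matrix genes 24 were tested: between constructs 12 had a log2 fold change above and 12 below 0 (median 0), and 9 were higher and 15 lower in extra axial tumors (median -0.16). COL1A1, the main bone and fibroblast collagen, ran from 321 to 8840 CPM and SPARC, which encodes osteonectin, from 247 to 3490 CPM. PHOSPHO1, a phosphatase of matrix vesicles, reached 3.12 CPM in YAP1-MAML2-v2 replicate 4, and SMPD3, a sphingomyelinase needed for mineralization, 4.48 CPM in YAP1-MAML2-v2 replicate 5. BGLAP, which encodes osteocalcin, reached 0.633 CPM, IFITM5, an osteoblast membrane protein, 0.165 CPM, and MMP13, a collagenase of hypertrophic cartilage and bone, 0.981 CPM. SMPD3, BGLAP, IFITM5 and MMP13 were chosen after their values were seen. The regulators DLX3 and DLX5 were highest in NLS-2SA-YAP1 replicate 1, at 7.06 and 5.48 CPM, the tumor that also led in SP7 and PHEX. SPP1, named for its place in the cluster, had 276, 40, 320, 9.78, 24.9, 15.7 and 32.7 CPM in YAP1-MAML2-v2 replicates 1 to 7. NLS-2SA-YAP1 replicates 1 to 3 gave 1030, 282 and 102 CPM, and the log2 fold change between constructs was 2.34 (SE 1.58, edgeR adjusted p = 0.573).

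Of 14 other osteocyte and phosphate genes 10 were tested. With NLS-2SA-YAP1 9 were higher and 1 was lower, at a median log2 fold change of 0.87, against 6632 higher and 7075 lower over all genes tested. At an unadjusted p under 0.05 there were 3 of the 10, beside 13.1% of all genes. CD44, a receptor for hyaluronan and osteopontin, had 1.72 (SE 0.53, edgeR adjusted p = 0.253). PDPN, the early osteocyte marker podoplanin, which meningeal cells can also make, had 1.38 (SE 0.42, edgeR adjusted p = 0.25). The phosphate carrier SLC20A1 had 0.94 (SE 0.31, edgeR adjusted p = 0.277). Most are widely expressed, and the osteocyte hormones were near 0: SOST, the Wnt inhibitor sclerostin, reached 0.177 CPM and FGF23, the phosphate-lowering hormone, 0.179 CPM, a pair chosen after their values were seen. Between regions 7 of the 10 were higher and 3 lower in extra axial tumors (median 0.08). NLS-2SA-YAP1 replicate 1 was the highest library for 6 of the 11 genes of this list that reached 1 CPM, and for 5 of the 22 such osteoblast and matrix genes. The share of all genes highest in that library was not counted.

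Of 28 other cartilage genes 26 were in the files and 19 were tested. Between constructs 10 had a log2 fold change above and 9 below 0 (median 0.14), and between regions 6 were higher and 13 lower in extra axial tumors (median -0.4). The intra ventricular tumor was the highest library for 11 of the 22 that reached 1 CPM, SOX5 and SOX6, the partners of SOX9, among them with 11 and 30.8 CPM. By the same count it was highest for 8 of 8 astrocyte genes, 9 of 10 neuron genes and 2 of 22 osteoblast and matrix genes. The share of all genes highest in that library was not counted. COL2A1 ran from 0 in YAP1-MAML2-v2 replicate 5 and NLS-2SA-YAP1 replicate 2 to 372 CPM. COL10A1, the collagen of hypertrophic cartilage, was highest at 11 CPM in YAP1-MAML2-v2 replicate 3, the tumor with the highest IBSP; SOX5, COL2A1 and COL10A1 were chosen after their values were seen. PRG4, the joint lubricant lubricin, had 3120, 1790 and 1210 CPM across NLS-2SA-YAP1 replicates 1 to 3 against 0.737 to 408 CPM in YAP1-MAML2-v2 tumors, with no overlap and a log2 fold change of 4.21 (SE 1.54, edgeR adjusted p = 0.307). MATN3, a cartilage matrix adaptor, had 43, 42.4 and 27.2 CPM against 0 to 16.5 CPM, also without overlap. For MATN3 edgeR fitted 4.21 on the log2 scale (SE 2.09, edgeR adjusted p = 0.437). Both genes were named for being among the 3 largest folds of this list. How many of all genes separate the constructs without overlap was not counted, so whether these 2 are unusual was not tested.

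**Figure D4:**
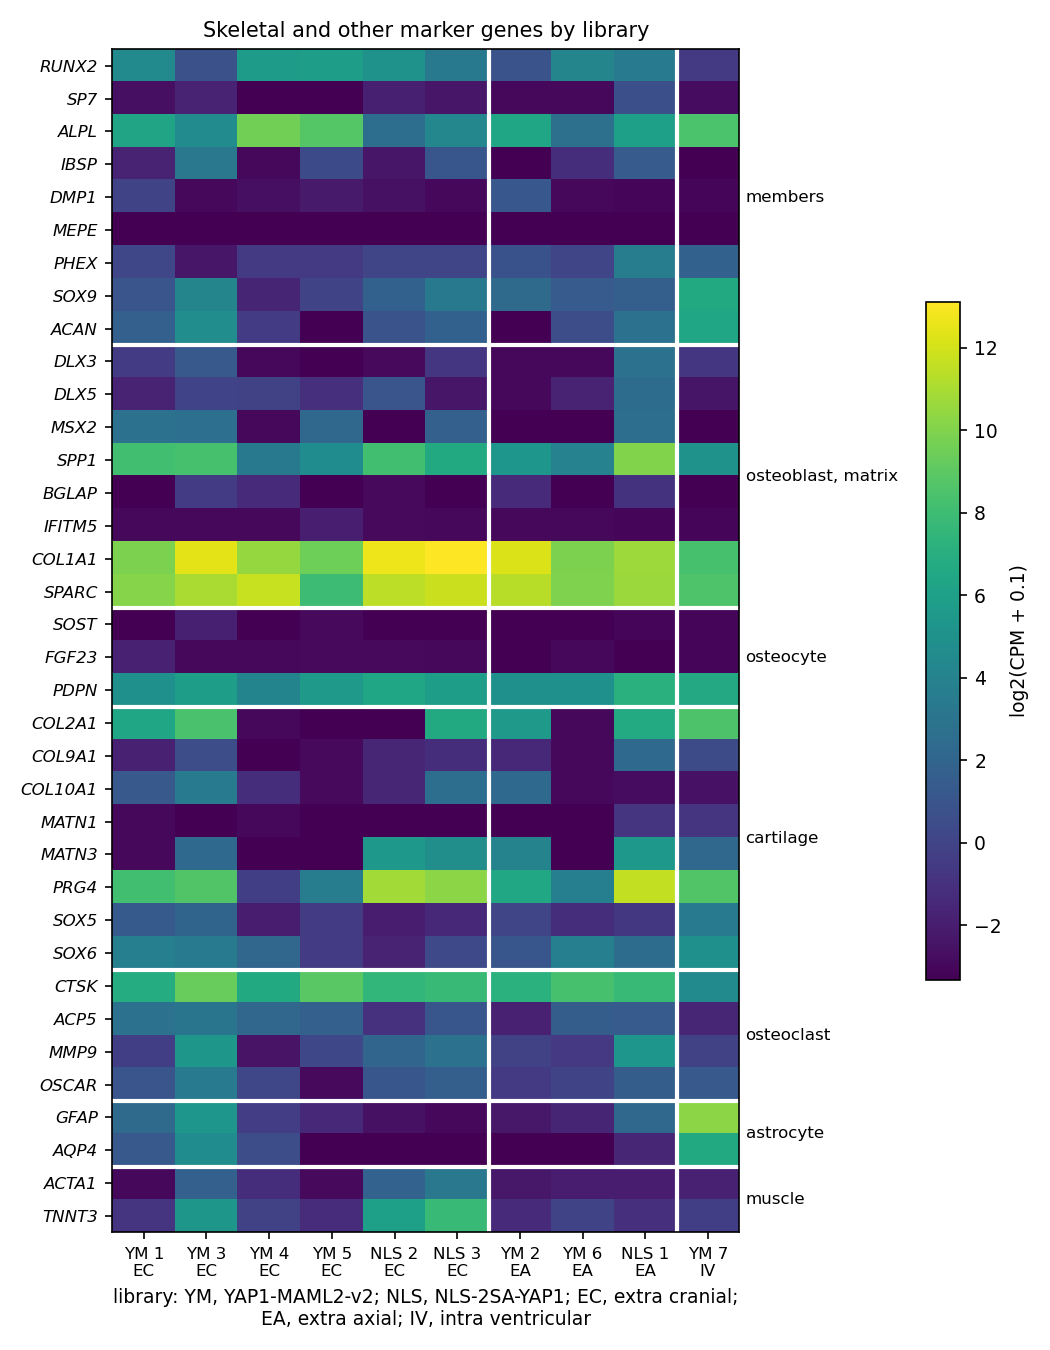
Levels as log2(CPM + 0.1) (colour) of the 9 members and of example genes from the other lists (rows, chosen after their values were seen) in the 10 tumors (columns, by region). COL1A1 and SPARC are high throughout while SP7, DMP1, MEPE, BGLAP, SOST and FGF23 are low throughout, and GFAP is brightest in the intra ventricular tumor.

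Osteoclasts, the cells that resorb bone, were read as a cell type that bone tissue holds. Of 12 osteoclast genes 9 were tested: between constructs 5 had a log2 fold change above and 4 below 0 (median 0.02), and between regions all 9 fitted values were below 0 (median -0.79), with none past the adjusted threshold. Those of NFATC1 and ITGB3 were about 0, at -0.05 (SE 0.65) and -0.06 (SE 1.15). MMP9, at -0.96 (SE 3.02), had 39.7 CPM in the extra axial NLS-2SA-YAP1 replicate 1 and 41.2 CPM in the extra cranial YAP1-MAML2-v2 replicate 3. The summed level was 861 CPM in YAP1-MAML2-v2 replicate 3 and 631 CPM in replicate 5, against 180 to 458 CPM elsewhere. CTSK, a protease that macrophages and fibroblasts also make, gave 635 and 484 CPM of these sums. The osteoclast fusion genes DCSTAMP and OCSTAMP reached 0.43 and 0.354 CPM, both in YAP1-MAML2-v2 replicate 3, and the receptor OSCAR reached 11 CPM there. DCSTAMP and OCSTAMP were chosen after their values were seen. Of the 9 osteoclast genes that reached 1 CPM, 6 were highest in that library. CALCR was not: it had 0.0253 CPM there and 3.34 CPM in the intra ventricular tumor. NLS-2SA-YAP1 replicate 2 gave 1.81 CPM of CALCR, replicate 3 gave 1.46 CPM, and 6 libraries were at 0. CALCR had the largest folds of this list, 6.72 (SE 1.42) between constructs and -6.61 (SE 2.19) between regions. With so many values at 0, these sizes have no clear meaning. In YAP1-MAML2-v2 replicate 3, which had the highest IBSP and the second highest SOX9 and ACAN, muscle genes were also high. The part of muscle in these values was not tested. The tooth list, which shares the mineralized-tissue program, summed to at most 0.21 CPM in any library. Tendon and ligament genes had 4 of 6 tested, with 2 higher and 2 lower between constructs and 1 higher and 3 lower between regions. Neutrophil and marrow genes summed to 108 CPM in the intra ventricular tumor and 22.3 to 49.8 CPM elsewhere, and erythroid genes to at most 2.43 CPM. CSF3R alone gave 101 of the 108 CPM and LTF gave 6.2, while S100A8 and S100A9 were each at 0.0237 CPM in that tumor. The higher sum there is therefore mostly the level of CSF3R.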

How the data were processed

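RNA of 10 mouse tumors was sequenced as stranded mRNA libraries, per the labels' protocols. HTSeq and mm10 are named in the submitters' processing notes without versions. Not given in the sources used here are the aligner, annotation and strand setting, and the step that gave mouse genes human-style symbols. Although whole numbers, the values the authors deposited were treated as estimated counts, because genes at 1 outnumber genes at 2 by 4.54 to 6.82 times per library. The design had assumed raw counts. No counting intervals are given.

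Genes were kept with filterByExpr by construct at a minimum count of 10, which left 13707. Libraries were TMM-scaled and tested with edgeR 4.0.16 (R 4.3.3), quasi-likelihood with robust dispersion, with construct and region as terms and the intra ventricular library as a term of its own, so it informs no fold but enters the filter and the scaling. P-values were adjusted by Benjamini-Hochberg across the tested genes at a threshold of 0.05. A positive fold change means higher with NLS-2SA-YAP1, or higher in extra axial tumors. The SE given with an edgeR fold was worked back from the test, as the absolute log2 fold change over the square root of its F value. CPM used TMM-scaled totals, log2 CPM a prior count of 2, and CPM per kb the merged exon length of GENCODE M21 (mm10). Pairs were tested with 100000 permutations. Steps were tested on simulated data with 50 changed genes at each fold. Between constructs 0% of 2-fold, 22% of 4-fold, 48% of 8-fold and 78% of 16-fold changes were recovered. Between regions the shares were 0%, 8%, 56% and 76%. The changed genes were drawn at random from tested genes above a minimum mean level and were not matched to the members. The tested members had SDs of log2 CPM from 1.65 (PHEX) to 3.4 (ACAN), against a median of 0.82 over all tested genes. The recovered shares therefore need not hold for the members. A gene that did not pass may still differ. Alternatives were DESeq2 1.42.0, limma 3.58.1 (trend and voom), no filter, upper-quartile scaling, other terms, subsets of libraries, a replicate block and each library left out.

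Besides the 9 members, the text names from each list the 3 genes of highest mean CPM or of largest fold where informative, and for likeness the 3 genes of highest Pearson's r. Other genes are said to be chosen after their values were seen. The members and lists were chosen with earlier results of these data known.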

Additional observations from a re-analysis of the deposited data

Results flagged for a closer look

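Of 16 sets of member values tested for a sample far from its group, 2 stood out, and chance alone marks about 1 in 20. DMP1 in YAP1-MAML2-v2 replicate 1 had 0.952 CPM, and the nearest of the other extra cranial tumors had 0.132 CPM. On the log2 CPM scale that is a gap of 0.665 of the whole range. PHEX in YAP1-MAML2-v2 replicate 3 had 0.101 CPM, below the nearest extra cranial value of 0.594 CPM. Its gap was 0.731 of the range, also on the log2 CPM scale.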

How the results depend on the processing

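No member with a p-value passed the adjusted threshold under any alternative run; DESeq2 gave no p-value for SOX9 and ACAN between constructs and between regions. Between constructs the count of called genes, 2 with edgeR, was 685 with DESeq2 (224 higher and 461 lower with NLS-2SA-YAP1, against 2 and 0), 95 with limma-voom and quality weights (66 higher and 29 lower), 4 without the filter, 4 with limma-trend at either prior count, and 4 in extra cranial libraries only; leaving out 1 library gave 0 to 2. It was 0 without YAP1-MAML2-v2 replicates 2, 4 or 6 or NLS-2SA-YAP1 replicates 2 or 3, and 1 without YAP1-MAML2-v2 replicates 3 or 5. Between regions the count of 0 became 31 with DESeq2, and 0 to 1 without 1 library, with 1 when YAP1-MAML2-v2 replicate 6 or NLS-2SA-YAP1 replicate 1 was left out. The interaction count of 1 became 204 with DESeq2, 4 with limma-trend and 0 to 3 without 1 library. It was 3 without YAP1-MAML2-v2 replicate 1, 2 without replicates 4 or 5, and 0 without replicates 2, 3 or 6 or NLS-2SA-YAP1 replicates 2 or 3; it could not be fitted without NLS-2SA-YAP1 replicate 1. The cause of these shifts was not tested.

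The replicate numbers were not treated as pairs in the main fit. Deviations of same-numbered libraries correlated at 0.146, 0.342 and 0.0199, and 2 of 3 NLS-2SA-YAP1 libraries correlated best with their own number. With so few shared numbers these values cannot decide whether the samples are paired. With a replicate block, which uses only the libraries numbered in both constructs, 32 genes passed between constructs and 8 between regions. Under the block the log2 fold change between constructs was 1.9 for RUNX2 and -0.25 for SOX9. Between regions it was 1.72 for ALPL, 0.63 for IBSP and 0.65 for SOX9, and the members' median was 0.64.

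PHEX in both comparisons, ALPL between constructs and RUNX2 between regions kept their sign under all 19 alternatives each. Other signs turned, and the cause was not tested. Between constructs, limma-trend gave RUNX2 0.29, and 0.3 at a prior count of 0.5; SOX9, 0.14 with edgeR, was 1.07 with limma-trend and 1.31 with limma-voom. Without a region term IBSP had -0.04, SOX9 -1.78 and ACAN -2.01. In extra cranial libraries only, IBSP had -1.37 and ACAN -1.63. Leaving out 1 library gave ranges between constructs of -0.74 to 0.18 for RUNX2, -1.36 to 2.25 for IBSP, -0.49 to 1.87 for SOX9 (the highest without YAP1-MAML2-v2 replicate 3) and -1.62 to 1.97 for ACAN. Between regions the ranges were -2.38 to -1.01 for RUNX2, -2.94 to 0.68 for ALPL, -4.02 to -0.34 for IBSP, -1.07 to 1.07 for SOX9 and -3.55 to 0.09 for ACAN. Between constructs, leaving out 1 library turned RUNX2 to 0.18 (YAP1-MAML2-v2 replicate 6) and 0.05 (NLS-2SA-YAP1 replicate 3). Without YAP1-MAML2-v2 replicate 2, replicate 6 or NLS-2SA-YAP1 replicate 1, IBSP had -0.34, -0.06 and -1.36, and ACAN -0.62, -0.3 and -1.62. SOX9 had -0.06, -0.14 and -0.11 without YAP1-MAML2-v2 replicates 1, 4 and 5, and -0.49 without NLS-2SA-YAP1 replicate 3. Between regions, SOX9 had 0.41 and 0.45 with limma-trend at prior counts of 2 and 0.5, 0.09 with limma-voom and 1.07 without YAP1-MAML2-v2 replicate 3, where ACAN had 0.09. ALPL had 0.35 and 0.68 without YAP1-MAML2-v2 replicates 2 and 6.

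The depth is unknown, 1 extra axial tumor carries NLS-2SA-YAP1, and 1 tumor is intra ventricular, so these values limit any statement on region and construct together.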
